A study of Homo sapiens with 18 samples.

Results

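In cells labelled as the breast cancer line HCC1937, 42 protein-coding genes were read in the empty-vector line and had not a single count in the 9 libraries of the line that overexpresses BRCA1. They were taken from a table of 35044 genes, of which 16954 are protein-coding and 9142 of those had a mean of at least 10 CPM (counts per gene scaled to the same library total) over the 9 empty-vector libraries. A gene was included when it belonged to these 9142, when its count was 0 in every BRCA1-overexpressing library, and when its symbol did not begin with HOX, COL, LAM, ITG, HLA or ZNF. Of the 9142 genes, 45 (0.492%) had no count in the BRCA1-overexpressing libraries, and the prefix removed ZNF521, ZNF556 and ZNF831. The 42 genes were chosen by their absence from that line and their level in the empty-vector line, so all values that set one line against the other are given as a description and carry no test.

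HCC1937 is an established breast cancer line that carries mutated BRCA1. HCC1937-EV (EV) carries an empty vector and HCC1937-OE-BRCA1 (OE) overexpresses wild-type BRCA1, and RNA-seq counts were deposited for both lines untreated and after 12 h and 24 h with olaparib, an inhibitor of PARP, with 3 libraries for each of the 6 conditions. The labels list the genotype of EV as WT and that of OE as BRCA1 overexpression, give olaparib as the treatment of all 18 libraries, and tell the untreated libraries apart by the 0 in their titles. Whether each line is 1 clone or a pool, and whether replicates came from separate cultures, is not given in the sources used here, so p-values measure the spread between these libraries, which may be technical. Total counts lay between 15081973 and 17571922 per library, so that 3 counts, taken as the upper limit that a count of 0 allows, correspond to between 0.179 and 0.193 CPM in 1 OE library and to 0.0208 CPM over the 9 OE libraries together. This limit covers counting error only.

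The libraries stood apart by more than the vector. BRCA1 itself lay between 111 and 124 CPM in the 3 untreated EV libraries and between 118 and 170 CPM in the 3 untreated OE libraries, and these ranges overlapped. After 12 h the ranges were 92.6 to 119 CPM in EV and 112 to 129.8 CPM in OE, which overlapped as well, and after 24 h 87.6 to 99.6 CPM and 161 to 175 CPM, without overlap. These are counts of RNA per gene, which do not separate the mutated from the introduced BRCA1. At the protein level, the paper reports a truncated BRCA1 in EV and both the truncated and the wild-type form in OE. EV and OE name libraries by their labels throughout. Of 12 markers of basal and epithelial breast cancer cells, 4 reached 10 CPM in EV against 11 in OE, and 5 were under 0.1 CPM in EV against 0 in OE. The 4 that reached 10 CPM in EV were KRT8, KRT18, KRT7 and EGFR, at 1894, 900, 480 and 173 CPM. In OE these were at 3393, 1025, 1622 and 300 CPM. The epithelial adhesion gene EPCAM had 1 count over the 9 EV libraries, and the basal keratins KRT5, KRT6A and KRT14 had 8, 2 and 3 counts, against 209 CPM or more for EPCAM, KRT5 and KRT6A and 39.4 CPM for KRT14 in OE. Of 7 fibroblast and mesenchymal markers, the filament gene VIM, at 277 CPM in EV and 1.17 CPM in OE, and the collagen gene COL1A1, at 112 and 8.87 CPM, reached 10 CPM in EV and 0 did in OE, while COL1A2, COL3A1, DCN and LUM were under 0.1 CPM in EV and between 0.0139 and 0.433 CPM in OE. The summed level of the 12 basal and epithelial markers lay between 3139 and 3842 CPM in EV libraries and between 8257 and 12530 CPM in OE libraries, and that of the 7 fibroblast and mesenchymal markers, nearly all of it VIM and COL1A1, between 366 and 425 CPM in EV and between 8.24 and 13.5 CPM in OE. Of 6 luminal markers, 2 reached 10 CPM in EV and 4 in OE, and of 3 neural and melanocytic markers 0 did in either line. Of 4 immune markers only CD14 did, in OE (66.1 CPM), and of 3 endothelial markers only PECAM1, in OE (15.8 CPM). The cell type in the labels is thus borne out in OE by 11 of the 12 basal and epithelial markers, and only in part in EV. As 4 luminal markers reached 10 CPM in OE too, these lists do not tell basal from luminal cells there. Whether both lines come from the same parental cells, as their names say, was not tested. In bulk RNA, fewer cells of a type and less RNA per cell cannot be told apart. What part the difference in markers has in the values below was not tested, and the vector and any other difference between the lines cannot be told apart.

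Several biological groups recur among the 42 genes. Cancer-testis antigens are genes of the germline, many of them in families on the X chromosome, that are silent in most adult tissues, are kept so by DNA methylation of their promoters, and are switched on in many tumours, where their peptides can be seen by T cells. Another group lies on a stretch of chromosome 10 and holds genes of unlike roles, among them a subunit of shieldin, a complex of DNA repair. The remaining genes include a drug efflux pump, enzymes, synaptic proteins and signalling regulators.

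The sequences before a RefSeq start of 4 cancer-testis antigen genes of the X chromosome, of 2 genes of the chromosome 10 stretch and of ECEL1, the gene of the 42 with the most counts, show how unlike these windows are. Each is the 250 bases before the RefSeq start on GRCh38.p14, read 5′ to 3′ on the gene's strand, with CG dinucleotides, the sites of DNA methylation, in capitals. The windows are chr2:232487835-232488084 on the minus strand for ECEL1, chrX:152698544-152698793 and chrX:152733507-152733756 on the plus strand for MAGEA3 and MAGEA12, chrX:49695985-49696234 on the minus strand for PAGE1, chrX:49589246-49589495 on the plus strand for GAGE2A, chr10:87818227-87818476 on the minus strand for ATAD1 and chr10:86955509-86955758 on the plus strand for SNCG. By the GENCODE positions, SNCG begins only at 86958618, and the ATAD1 window lies inside the gene, at 87751512-87841343. A window may thus not precede the start of the transcripts that were counted.
ECEL1: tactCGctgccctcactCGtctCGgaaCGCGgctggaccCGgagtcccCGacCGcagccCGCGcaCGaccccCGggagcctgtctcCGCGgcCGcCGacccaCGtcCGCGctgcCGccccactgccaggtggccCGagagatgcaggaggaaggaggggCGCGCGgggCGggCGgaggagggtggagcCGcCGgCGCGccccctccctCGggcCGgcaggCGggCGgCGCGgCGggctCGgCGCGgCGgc
MAGEA3: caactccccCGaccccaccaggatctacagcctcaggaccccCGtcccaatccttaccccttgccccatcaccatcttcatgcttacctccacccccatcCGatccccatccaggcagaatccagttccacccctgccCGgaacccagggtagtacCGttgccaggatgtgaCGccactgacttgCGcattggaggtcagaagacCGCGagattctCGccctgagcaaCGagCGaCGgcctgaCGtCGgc
MAGEA12: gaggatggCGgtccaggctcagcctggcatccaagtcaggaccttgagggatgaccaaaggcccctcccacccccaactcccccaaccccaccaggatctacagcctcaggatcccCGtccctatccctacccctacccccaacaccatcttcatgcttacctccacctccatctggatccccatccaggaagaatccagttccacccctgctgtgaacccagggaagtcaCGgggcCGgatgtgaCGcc
PAGE1: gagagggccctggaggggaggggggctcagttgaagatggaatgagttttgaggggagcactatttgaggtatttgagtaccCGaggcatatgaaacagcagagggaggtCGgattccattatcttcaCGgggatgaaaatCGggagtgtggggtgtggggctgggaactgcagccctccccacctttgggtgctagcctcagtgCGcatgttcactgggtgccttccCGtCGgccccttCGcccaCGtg
GAGE2A: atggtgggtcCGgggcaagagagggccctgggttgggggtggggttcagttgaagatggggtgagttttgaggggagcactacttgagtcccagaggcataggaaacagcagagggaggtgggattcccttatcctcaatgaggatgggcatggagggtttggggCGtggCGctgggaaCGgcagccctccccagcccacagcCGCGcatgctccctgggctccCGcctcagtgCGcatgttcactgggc
ATAD1: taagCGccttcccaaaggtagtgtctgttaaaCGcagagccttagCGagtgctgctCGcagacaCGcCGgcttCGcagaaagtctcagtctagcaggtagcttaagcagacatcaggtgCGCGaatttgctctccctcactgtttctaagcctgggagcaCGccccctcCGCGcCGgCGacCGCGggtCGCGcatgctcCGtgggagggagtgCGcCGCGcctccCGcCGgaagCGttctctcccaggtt
SNCG: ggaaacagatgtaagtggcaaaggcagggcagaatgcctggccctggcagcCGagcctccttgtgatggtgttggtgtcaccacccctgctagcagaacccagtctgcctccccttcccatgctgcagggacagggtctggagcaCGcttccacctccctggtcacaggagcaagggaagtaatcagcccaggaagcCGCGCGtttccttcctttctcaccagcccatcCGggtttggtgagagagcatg
ECEL1 held 41 CG dinucleotides and ATAD1 held 25, whereas MAGEA3 held 15, PAGE1 held 9, GAGE2A held 8, SNCG held 6 and MAGEA12 held 5. MAGEA6 had the same 250 bases as MAGEA3. MAGEA12 shared a stretch of 177 aligned positions with MAGEA3, 88.7% of them identical, and PAGE1 shared 241 positions with GAGE2A, 75.5% of them identical.

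The RefSeq table gave such a window for 28 of the 42 genes. Among those without one were CTAG2, PAPSS2, SHLD2, MAGEA1, LINC02693, SNAP25, SLC7A2, OLFML1, FAM110B, PPDPFL, SRGN and SDR16C5. The ratio of observed to expected CG dinucleotides was 0.629 in the median of the 28 windows, against 0.848 in the 7553 windows of the other protein-coding genes at 10 CPM or more in EV. A ratio of at least 0.6 was reached by 14 of the 28 windows (50%) and by 86.2% of the others. Over all 15841 protein-coding windows of the RefSeq table, expressed or not, the median was 0.737 and 63.4% reached 0.6. The 28 windows were nearer to these values than to those of the other genes at 10 CPM or more. The 7 windows of cancer-testis antigen genes had a median of 0.450 and ranged from 0.238 in MAGEA12 to 0.700 in MAGEA3 and MAGEA6. The lowest values of all were those of PDE3A (0), INSL4 (0.0997) and ABCB1 (0.115), and the highest were those of PPARGC1A (1.06), EYA4 (1.05) and ATAD1 (1.03). The ETS motif CCGGAAG, looked for on both strands, was found in 2 of the 28 windows (7.14%), those of ATAD1 and MINPP1, and in 18.2% of the others, and the SP1 motif GGGCGGG in 9 (32.1%) and 55.0%. Over all 15841 windows the shares were 11.8% for ETS and 42.9% for SP1. A match or its absence describes these letters in this window only, and DNA methylation was not measured.

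**Figure D1:**
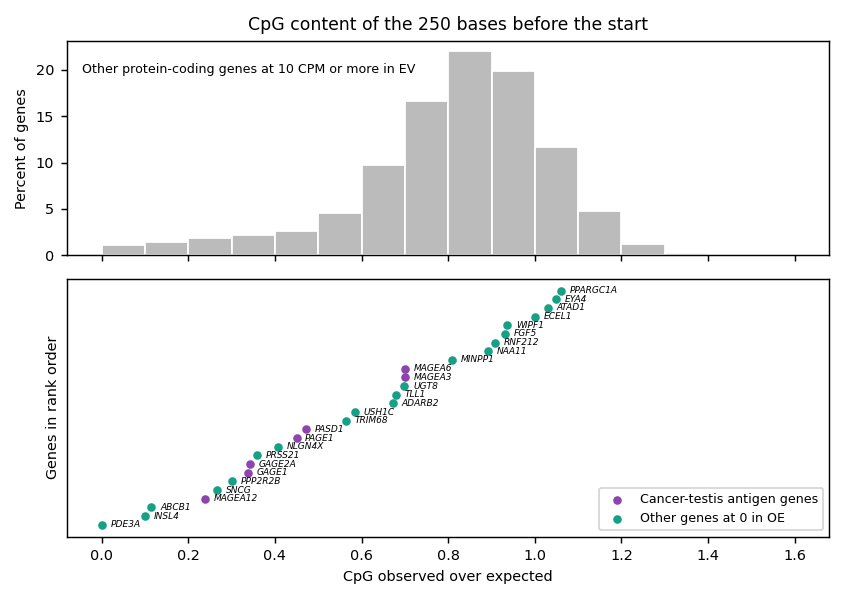
The upper panel shows the percent of the other protein-coding genes at 10 CPM or more in EV by the ratio of observed to expected CG dinucleotides in the 250 bases before the RefSeq start, and the lower panel places the 28 genes with a window on the same axis, in rank order. The 7 cancer-testis antigen genes lie between 0.238 and 0.700, left of the median of 0.848 of the other genes.

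In CPM, which takes no account of transcript length, the 42 genes in EV spanned from 12.1 CPM in TRIM68, an E3 ubiquitin ligase, to 640.4 CPM in ECEL1, a membrane metalloprotease known from neurons. There were 10 genes above 100 CPM, 22 between 20 and 100 CPM and 10 under 20 CPM. Together they took between 0.284% and 0.376% of the counts of an EV library, and ECEL1 alone held 19.5% of that share. Against the limit of 0.0208 CPM over the OE libraries, ECEL1 was at least 30768-fold higher in EV and TRIM68 at least 583-fold. The genes were about as steady across the EV libraries as others, with a median coefficient of variation of 13.8% over the 9 libraries against 13.1% for the other genes at 10 CPM or more. In 40 of the 42, every EV library had at least 10 CPM, and the lowest single value was 9.33 CPM of USH1C in an untreated library.

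**Figure D2:**
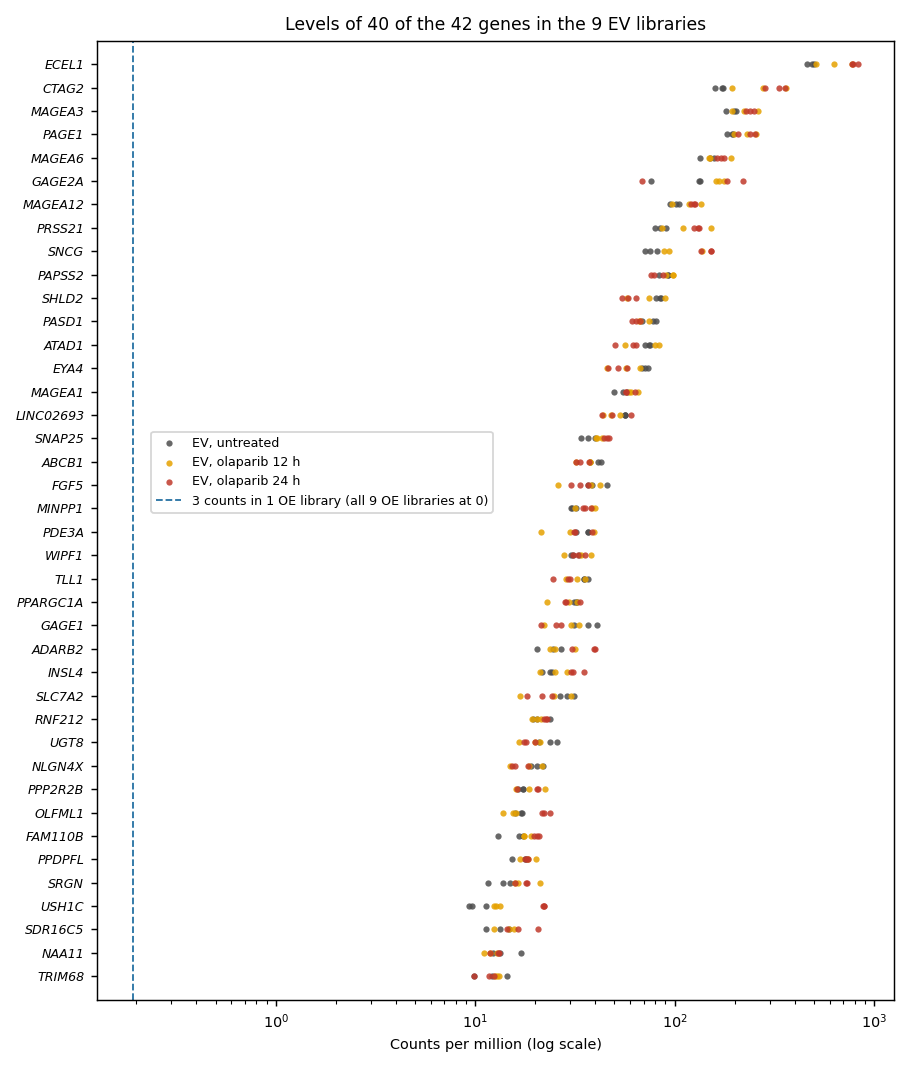
Each row is 1 of 40 of the 42 genes and each point 1 of the 9 EV libraries, in CPM on a log scale, coloured by hours of olaparib. The dashed line marks 3 counts in 1 OE library, the limit for a count of 0, and every point lies at 9.33 CPM or above.

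The rule has 2 edges, and genes lie close on both sides. Just inside the CPM limit were SRGN (16.2 CPM), USH1C (15), SDR16C5 (14.9), NAA11 (13.0) and TRIM68 (12.1), and just outside, with no count in OE, were ADAMTS12 (8.68 CPM), FOXN4 (8.49), PRAME (8.43), CLEC2L (8.24) and HECW1 (8.21). On the other edge, 20 genes at 10 CPM or more in EV had between 1 and 3 counts over the 9 OE libraries. PDE10A, a phosphodiesterase at 236 CPM in EV, had 1 OE count, and GLUD1, the glutamate dehydrogenase at 174 CPM, had 2. The same rule with the lines exchanged gave 161 genes. By gene type, 6 genes with no OE count and at least 10 CPM in EV were no protein-coding genes. LINC02693 counts as protein-coding in GENCODE release 29, under the name C17orf51, and as a long noncoding RNA in RefSeq.

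The cancer-testis antigens were the largest group, with 9 genes that all lie on the X chromosome. Of 93 genes listed by symbol for cancer-testis families, 18 reached 10 CPM in EV: these 9, a further 3 with OE counts but under 10 CPM there (TEX15, CSAG1 and ACTL8), and 6 that reached 10 CPM in both lines. The 6 were SSX2IP, TEX261, TEX2, TEX10, TEX264 and TEX30. A listed symbol does not make a gene a cancer-testis antigen, and the 6 are not taken as such here. In the other direction, SYCP2 of the synaptonemal complex reached 10 CPM in OE only. The summed level of the 9 genes lay between 1002 and 1139 CPM in the untreated EV libraries, between 1209 and 1535 CPM after 12 h and between 1316 and 1541 CPM after 24 h. Within this sum, CTAG2 had a mean of 170 CPM untreated and 325 CPM after 24 h. GAGE1 and PASD1 had lower means after 24 h than untreated, and the others higher ones. CTAG2, of the family of the tumour antigen NY-ESO, was at 257 ± 83.2 CPM (SD, n = 9). Per kb of exon PAGE1 came first, with 328 CPM per kb, followed by GAGE2A with 278, CTAG2 with 259 and MAGEA3 with 123 CPM per kb. Most relatives in the same clusters had counts near 0 in both lines: GAGE12F had 3 counts in EV, MAGEA2 had 14 and CTAG1A had 50, with none in OE. Some relatives share long stretches of sequence with the genes above, so their low counts in EV do not show that they were silent there.

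MAGEA3 and MAGEA6, whose proteins bind the ubiquitin ligase TRIM28, lie with MAGEA12 in a stretch of the X chromosome, at chr X 152698752-152702347, 152766136-152769747 and 152733779-152737669. MAGEA3 was at 220 ± 27.4 CPM, MAGEA6 at 161 ± 17.6 and MAGEA12 at 114 ± 14.6 CPM (SD, n = 9). Between MAGEA3 and MAGEA12 lies CSAG1, at 50.5 CPM in EV and with 9 OE counts, while CETN2 on the far side of MAGEA6 was read in both lines, at 31.5 and 18.5 CPM. MAGEA1, at 58.4 CPM, and PASD1, an antigen with a PAS domain at 69.7 CPM, lie further off on the same arm, and the genes next to them, such as VMA21 and GABRE beside PASD1, were read in OE at 57.4 and 89.2 CPM. GAGE1, GAGE2A and PAGE1 lie together over 106 kb on the other arm, with USP27X beyond them at 3.27 CPM in EV and 1.51 CPM in OE. GAGE2A, at 49589529-49596827, lies wholly inside the span of GAGE1, at 49589496-49608536, on the same strand.

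The counts of these families cannot be assigned to single genes with certainty. Of all stretches of 50 bases in the transcripts of GAGE2A, 85.2% also occurred in other genes, chiefly GAGE12F. The share was 56.5% for MAGEA3 and 53.9% for MAGEA6, chiefly with each other, 43.1% for CTAG2 with CTAG1B, 13.8% for MAGEA12 and 12.9% for GAGE1. GAGE1 and GAGE2A share 75 bases of exon on the same strand. PAGE1 shared no stretch of 50 bases with another gene, and MAGEA1 0.662%, and their counts are the least affected.

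Genes known from the germline or the placenta, outside the listed families, were present as well. PRSS21, a serine protease of the testis, was at 110 ± 25.9 CPM (SD, n = 9). RNF212, a factor of meiotic crossing-over, was at 21.4 CPM and NAA11, an N-terminal acetyltransferase subunit found mainly in the testis, at 13.0 CPM. INSL4, an insulin-like peptide of the placenta, was at 26.8 CPM.

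Another group of 5 genes lies on 1 stretch of chromosome 10. From SNCG at chr10 86958618-86963260 to ATAD1 at chr10 87751512-87841343, they are SNCG, SHLD2, MINPP1, PAPSS2 and ATAD1, and the last 3 of these are direct neighbours over 336 kb among expressed protein-coding genes. Over the 906 kb from MMRN2 to the end of ATAD1, the table lists 9 protein-coding genes, which together had 83551 counts in EV and 5 counts in OE, and 7 of them had none in OE. GLUD1 and MMRN2 held the 5 OE counts, with 2 and 3, and NUTM2A and NUTM2D had 0 with 241 and 201 counts in EV. With genes of any type, 19 genes had 90975 counts in EV and 18 in OE, of which LINC00863 held 10.

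On the side of SNCG, the next gene was BMPR1A, a receptor of bone morphogenetic proteins, with 10005 counts in EV and 2920 in OE. Further along on the side of ATAD1 the order turned: RNLS had 1 count in EV and 688 in OE, LIPK 1 and 143, and ANKRD22 0 and 934, before STAMBPL1, with 2482 and 960 counts, and FAS, with 1773 and 2277, were read in both lines. OE thus had counts on both sides of the stretch and almost none from MMRN2 to ATAD1. Counts on genes do not tell a missing stretch of DNA from one that is not transcribed.

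**Figure D3:**
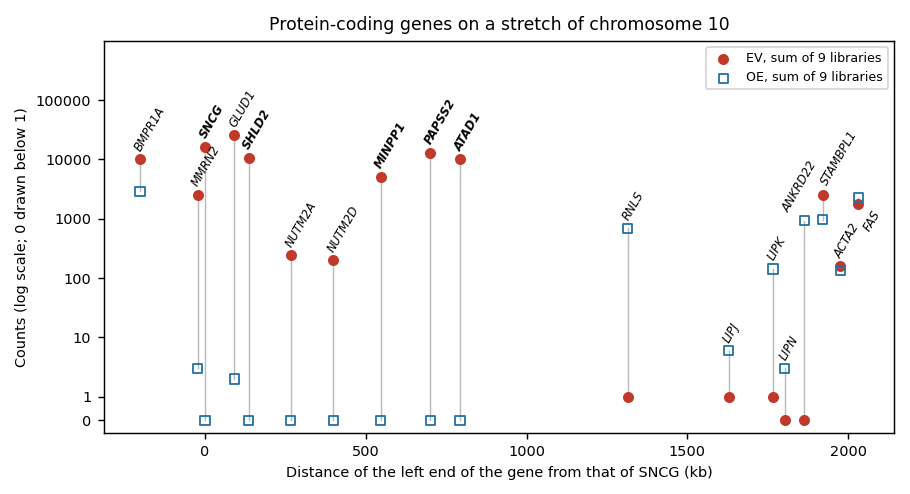
The protein-coding genes reported here are placed by the distance, in kb, of their left end on the chromosome from that of SNCG, and the vertical axis gives the summed counts of the 9 EV libraries (red) and the 9 OE libraries (blue squares) on a log scale, with 0 drawn below 1 and the 5 genes of the set in bold. From MMRN2 to ATAD1 the OE counts are 0 to 3 while those of EV reach 25541, and on both outer sides OE has counts again.

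These 5 genes have varied roles. SNCG, a small synuclein known from neurons and breast tumours, was at 110 ± 34.1 CPM (SD, n = 9). PAPSS2, which makes the sulfate donor of the cell, was at 88.8 ± 7.90 CPM, and ATAD1, which pulls misplaced proteins out of the outer mitochondrial membrane, at 68.5 ± 11.2 CPM. MINPP1, a phosphatase of inositol polyphosphates, was at 34.6 ± 3.66 CPM. Per kb of exon, SNCG was at 88.1 and MINPP1 at 11.5 CPM per kb. SHLD2 was at 72.3 ± 13.6 CPM, and it is a subunit of shieldin, which shields broken DNA ends from resection and whose loss is known to make BRCA1-deficient cells resistant to PARP inhibitors.

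The partners of SHLD2 were read in both lines. SHLD1 was at 1.42 CPM in EV and 3.33 CPM in OE, SHLD3 at 3.15 and 1.61 CPM, MAD2L2 at 49.2 and 47.4 CPM, and TP53BP1, which recruits shieldin, at 69.7 and 65.8 CPM. Of the stretches of 50 bases in SHLD2 transcripts, 54.4% occur in other genes, chiefly the copy SHLD2P1, which had 245 counts in EV and 3 in OE. SHLD2 also shares 464 bases of exon with GLUD1 on the opposite strand, and whether counting used strand is not given in the sources used here.

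By chromosome, 10 of the 42 genes (23.8%) lie on the X chromosome and 8 (19%) on chromosome 10, where 3.26% and 3.82% of the protein-coding genes at 10 CPM or more in EV lie. Outside these groups the genes were scattered, with 6 on chromosome 4, 4 on chromosome 8, 3 on chromosome 11 and at most 2 on any other. For 31 of the 42, at least 1 of the flanking expressed protein-coding genes reached 1 CPM in OE, and for 23 both did. The same shares were not computed for other genes, so whether these counts are high or low is not known. ECEL1 was flanked by PRSS56, a serine protease at 1430 CPM in EV and 0.0350 CPM in OE, and by ALPI at 1.81 and 0 CPM.

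The remaining genes reported here hold no cluster. ABCB1, the efflux pump P-glycoprotein, which carries olaparib among many drugs out of the cell, had 37.8, 42.8 and 41.4 CPM in the untreated EV libraries, 37.8, 37.5 and 32.2 CPM after 12 h and 32.0, 33.5 and 37.2 CPM after 24 h. Every treated library was below every untreated one, the highest of them by under 0.1 CPM. Of the other protein-coding genes at 10 CPM or more in EV, 12.0% lay wholly below the untreated libraries after 12 h and 28.8% after 24 h. ABCB1 was not called at either time in the test described below. Of the other transporters listed, SLC7A2, which imports cationic amino acids, was at 24.8 CPM.

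PPARGC1A, the coactivator that drives mitochondrial biogenesis, was at 30.1 CPM. Genes of the nerve terminal and synapse were SNAP25, a SNARE protein of vesicle fusion, at 41.4 CPM, and NLGN4X, a neuroligin, at 18.5 CPM. Signalling genes were FGF5, a fibroblast growth factor, at 36.5 CPM, PDE3A, which degrades cAMP, at 33.1 CPM, PPP2R2B, a regulatory subunit of the phosphatase PP2A, at 18.4 CPM, and EYA4, a developmental coactivator and phosphatase, at 59.95 CPM.

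Enzymes of the set included UGT8, which makes galactosylceramide, at 20.4 CPM, TLL1, a metalloprotease of the tolloid family, at 32.0 CPM and SDR16C5, a retinol dehydrogenase, at 14.9 CPM. WIPF1, which binds the actin regulator WASP, was at 32.7 CPM, ADARB2, an ADAR relative of the brain with no known editing activity, at 29.1 CPM, SRGN, the proteoglycan serglycin, at 16.2 CPM and USH1C, the scaffold protein harmonin, at 15 CPM. OLFML1, a secreted olfactomedin-like protein, was at 18.1 CPM. LINC02693, FAM110B and PPDPFL were at 51.9, 18.1 and 17.9 CPM. Of 16 gene lists, 8 held at least 1 of the 42 genes, and 21 genes were in none. The lists of cadherins, claudins, ion channels, cytokines and imprinted genes held none of them.

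The effect of olaparib within EV did not enter the choice of the genes and could be tested. All 42 passed the filter on low counts, which their EV level ensures. The test was edgeR's quasi-likelihood test over 18335 genes, with Benjamini-Hochberg adjusted p-values over all of them, and a gene was called when the adjusted p was under 0.05. After 24 h, 8 of the 42 genes rose and 3 fell against untreated EV. That is 26.2% of the genes, beside 13.7% of all genes tested and 21.1% of the other protein-coding genes at 10 CPM or more in EV, and the shares called higher and lower were 8.62% and 5.12% of all genes tested and 13.3% and 7.75% of those at 10 CPM or more. The share was close to that of the genes that meet the same CPM minimum and is no result about these genes as a set. Their levels were not matched to those genes, with a median of 33.9 CPM in the 42 and 50.1 CPM in the others. Their median log2 fold change was 0.11, against -0.01 in the other protein-coding genes at 10 CPM or more.

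USH1C rose the most. Its EV libraries had 9.60, 9.33 and 11.3 CPM untreated, 12.7, 12.4 and 13.3 CPM after 12 h, and 22.3, 21.9 and 22.3 CPM after 24 h. The groups did not overlap at any step, and the change after 24 h was 1.15 ± 0.14 on the log2 scale (SE, edgeR's quasi-likelihood test, adjusted p = 0.000797). Between 12 h and 24 h it was 0.81 ± 0.14 (adjusted p = 0.0339 in the same edgeR test), a call that 5 of the 6 fits without 1 of these libraries lost, and USH1C was the only one of the 42 called there, beside 0.18% of all genes tested.

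SNCG, of the chromosome 10 stretch, had 70.8, 75.6 and 81.9 CPM untreated, 88.7, 93.8 and 137 CPM after 12 h, and 152, 153 and 136 CPM after 24 h. Every treated library was above every untreated one, and the change after 24 h was 0.97 ± 0.15 on the log2 scale (edgeR, adjusted p = 0.00271). The 12 h libraries were far apart, with 1 of them at the level of 24 h. They differed as whole libraries too: mitochondrial genes took 7.87%, 5.55% and 5.43% of the counts in the 12 h libraries, beside 7.10% to 8.33% untreated and 5.80% to 5.86% after 24 h, and the chi-square per degree of freedom between pairs of libraries was 19.4 to 42.3 at 12 h, 3.84 to 9.08 untreated and 7.05 to 14.9 at 24 h. The part of these library differences in the values at 12 h and 24 h was not tested.

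CTAG2 was the only cancer-testis antigen gene of the set that rose past the threshold. Its libraries had 160.4, 176 and 173 CPM untreated, 193, 276 and 363 CPM after 12 h, and 356, 334 and 286 CPM after 24 h, without overlap between untreated and treated libraries. The change after 24 h was 0.95 ± 0.17 on the log2 scale (edgeR, adjusted p = 0.00551). ECEL1 had 460.2, 503 and 486 CPM untreated, 513, 633 and 776 CPM after 12 h, and 785, 833 and 774 CPM after 24 h, again without overlap, and a change after 24 h of 0.73 ± 0.13 (edgeR, adjusted p = 0.00422).

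Smaller rises after 24 h were those of PRSS21 (log2 fold change 0.62), ADARB2 (0.62), INSL4 (0.48) and OLFML1 (0.44), with adjusted p between 0.0189 and 0.044 by edgeR's quasi-likelihood test. Untreated and 24 h libraries did not overlap in any of these. OLFML1 was not higher at 12 h, where it lay between 13.8 and 16.04 CPM, beside 15.9 to 17.3 CPM untreated and 21.5 to 23.9 CPM after 24 h.

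The 3 genes that fell were GAGE1, SHLD2 and EYA4. SHLD2 had 85.7, 80.7 and 84.97 CPM untreated, 89.1, 74.8 and 57.5 CPM after 12 h, and 64.4, 54.6 and 58.5 CPM after 24 h, a change of -0.49 ± 0.14 on the log2 scale (edgeR, adjusted p = 0.0364). EYA4 changed by -0.44 ± 0.13 (edgeR, adjusted p = 0.0394) and GAGE1 by -0.55 ± 0.16 (edgeR, adjusted p = 0.0381). GAGE1 had 40.7, 36.9 and 31.5 CPM untreated and 27.0, 21.3 and 25.4 CPM after 24 h. GAGE2A, with which it shares exon bases, had 76.2, 135 and 133 CPM untreated and 219, 68.6 and 184 CPM after 24 h, so its 3 libraries at 24 h reached both above and below the untreated ones, and its log2 fold change of 0.47 ± 0.31 did not pass (edgeR, adjusted p = 0.321). It ranged from 0.13 without 24 h replicate 1 to 0.82 without 24 h replicate 2, where it was called (edgeR, adjusted p = 0.0358), was 0.24 without untreated replicate 1, and with no filter on low counts it was called too, at 0.48.

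Among the other cancer-testis antigen genes, the log2 fold changes after 24 h were 0.31 ± 0.11 for MAGEA3, 0.31 ± 0.12 for MAGEA12, 0.30 ± 0.12 for PAGE1 and 0.22 ± 0.12 for MAGEA6 (SE), with no overlap between untreated and 24 h libraries and adjusted p between 0.0856 and 0.23 in edgeR's quasi-likelihood test. With an offset for GC content and transcript length these became 0.14, 0.19, 0.16 and -0.02, so that MAGEA6 changed sign. MAGEA1 was at 0.13 ± 0.12 with overlapping libraries (edgeR, adjusted p = 0.467), and at 0.01 with the offset. PASD1 stood at -0.23 ± 0.11 with an adjusted p of 0.182 in the same edgeR test. Of the 93 genes listed by symbol for cancer-testis families, 37 were tested, and after 24 h 3 were called higher and 2 lower, a share near the 13.7% of all genes tested. That list also holds genes that are not taken as cancer-testis antigens here. The genes of the chromosome 10 stretch did not move together: SNCG rose, SHLD2 fell, and ATAD1 (-0.32 ± 0.14), MINPP1 (0.24 ± 0.12) and PAPSS2 (-0.14 ± 0.10) did not pass, with adjusted p of 0.153, 0.217 and 0.391 in the edgeR test. With the offset ATAD1 was at -0.05 and PAPSS2 at -0.10, and MINPP1 was called at 0.33 (edgeR, adjusted p = 0.0281). ABCB1 stood at -0.24 ± 0.12 (edgeR, adjusted p = 0.194), and at -0.06 with the offset.

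**Figure D4:**
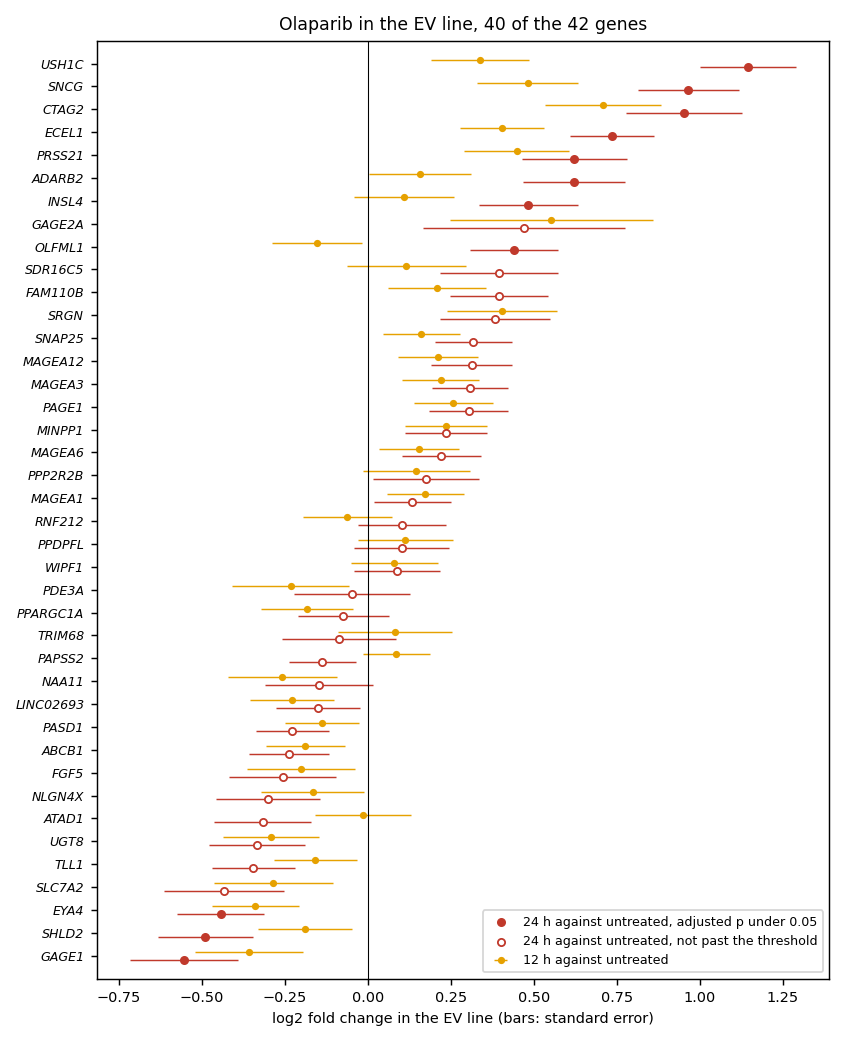
Each row gives the log2 fold change of 1 of 40 of the 42 genes in the EV line after 12 h (yellow) and 24 h (red) of olaparib against untreated, with its standard error, ordered by the change at 24 h. The 11 filled red points passed the test at 24 h and run from -0.55 for GAGE1 to 1.15 for USH1C.

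**Figure D5:**
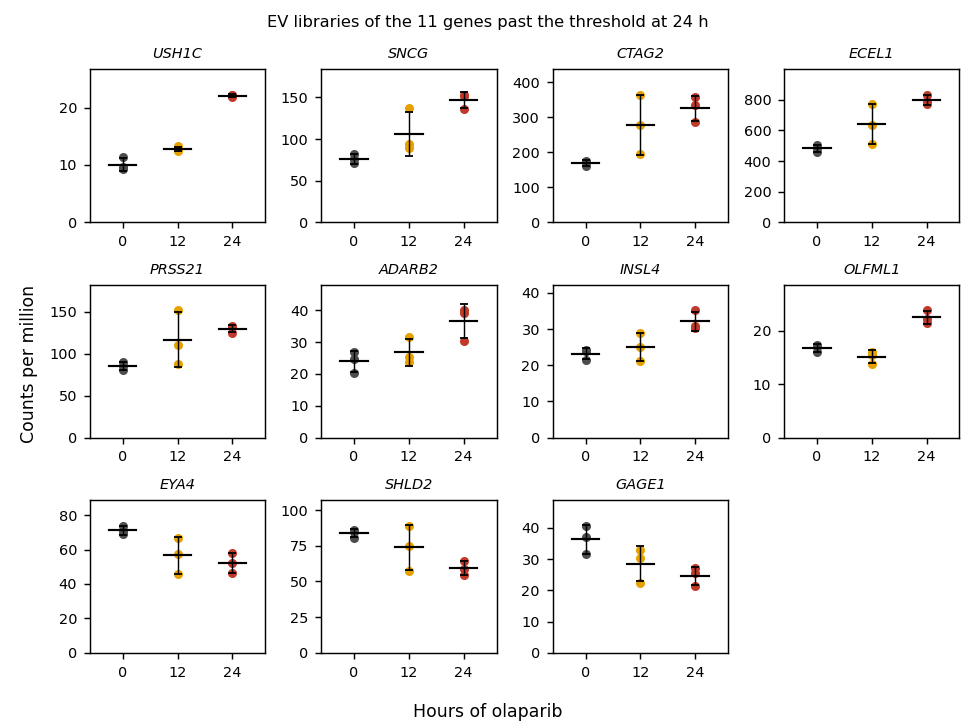
The 11 genes past the threshold at 24 h are shown in CPM against hours of olaparib, with 1 point for each of the 3 EV libraries of a time, a line at the mean and bars of 1 SD. USH1C is tight at every time, whereas CTAG2, ECEL1 and PRSS21 spread widely at 12 h.

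Counted by overlap alone, all 3 libraries at 24 h lay above all 3 untreated ones for 16 of the 42 genes and below them for 11, beside 29.1% and 28.8% of the other protein-coding genes at 10 CPM or more. After 12 h, 10 genes lay wholly above and 3 wholly below the untreated libraries, beside 14.1% and 12.0%. None of the 42 was called after 12 h by edgeR's quasi-likelihood test, beside 0.0436% of all genes tested. An unadjusted p under 0.05 was found for 9 of them, beside 2963 of the 18335 genes tested. DESeq2's Wald test called 1, CTAG2, beside 1.34% of all genes tested. At 12 h the log2 fold changes were 0.71 ± 0.17 for CTAG2, 0.48 ± 0.15 for SNCG and 0.40 ± 0.13 for ECEL1 (SE). They were 0.33, 0.18 and 0.09 with the offset for GC content and transcript length, and 0.44, 0.24 and 0.22 without 12 h replicate 3.

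The calls at 24 h changed with single libraries and with the offset, in which GC content and transcript length entered together. ECEL1, CTAG2, SNCG and USH1C were called with each of the 6 libraries left out in turn, whereas SHLD2, GAGE1, INSL4 and OLFML1 were lost without any 1 of the 6, EYA4 without any but 24 h replicate 3, and PRSS21 and ADARB2 in 4 of the 6 fits each, so that between 4 and 6 of the 42 genes were called. Those fits called between 2.45% and 11.8% of all genes tested, beside 13.7% with all libraries. With the offset the log2 fold changes at 24 h became 0.28 for ECEL1, 0.44 for CTAG2, 0.54 for SNCG, 0.29 for PRSS21 and -0.27 for SHLD2, all still called, and -0.21 for EYA4, which was no longer called, while USH1C stood at 1.01. The offset added calls for MINPP1, SNAP25 (0.41) and SRGN (0.50) and gave 13 of the 42 genes, beside 13.3% of all genes tested.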

How the data were processed

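RNA was extracted with TRIzol and libraries were made with the NEBNext Ultra II kit. The authors deposited raw counts of reads per gene for 18 libraries, as whole numbers without normalization, in a joint table and in a table per library, which differed in 0 values. The submitters' processing notes name HISAT2, featureCounts and DESeq2 with the build GRCh38. Versions, annotation and strandedness are not given in the sources used here. Identifiers were matched to symbols for 34966 of 35044 genes and to GENCODE release 29 for 33888, which gave gene type, position and exonic length.

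Levels are CPM, the count over the library total. Of the 42 genes, all were at 0 in OE by the rule, and the members and lists were chosen with earlier results of these data known. Olaparib contrasts within EV were computed with edgeR 4.0.16 in R 4.3.3, with TMM normalization, filterByExpr (18335 genes), 1 mean per condition over 18 libraries and the quasi-likelihood test with Benjamini-Hochberg adjustment. Standard errors follow from the fold change and the F statistic. The fit was also run on simulated counts, drawn with the same fixed spread for all genes and without the whole-library differences described above. That run does not show how the fit performs on libraries such as these. DESeq2 1.42.0 and the other alternatives are listed in the closing section. Genes were named for level (the 20 highest by CPM and by CPM per kb), for a call in EV, for lying in a run of neighbours or in a gene list, and for lying just inside or outside the rule, which covers all 42. Of these, 2 genes, and 1 gene just outside the rule, are not reported here and are not drawn in the plots, but stay in the counts. Sequences before gene starts are from RefSeq, and stretches shared between genes were searched in GENCODE transcripts on either strand. Replicates differed by more than sampling noise, and each library was counted as 1 replicate. That difference does not show that the replicates came from separate cultures. Whether the replicate numbers pair libraries could not be settled with 3 libraries for each condition. Correlations of same-numbered deviations lay between -0.271 and 0.386, and 4 of 9 exceeded 0.1. Those of differently numbered libraries lay between -0.406 and 0.358.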

Additional observations from a re-analysis of the deposited data

How the results depend on the processing

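The number of genes stayed at 42 with each EV library left out and moved to 89 when a mean under 0.1 CPM in OE was allowed. After 24 h, 8 genes were called higher and 3 lower. The 6 libraries of those conditions alone gave 16 and 9, an absolute log2 fold change of at least 1 gave 1 and 0, one of at least 0.5 gave 1 lower, and fits without 1 replicate gave between 4 and 6 higher and between 0 and 1 lower. Of all genes tested, 34.9%, 1.89% and 8.78% were called in the first 3 of these settings and between 2.45% and 11.8% without 1 replicate, beside 13.7%. After 12 h, where 0 were called, DESeq2's Wald test called 1 higher and no filter on low counts 5, and fits without 1 replicate between 0 and 3, the 3 being CTAG2, ECEL1 and PRSS21 without 12 h replicate 1. These settings called 1.34%, 2.33% and between 0.0053% and 2.45% of all genes tested, beside 0.0436%. For 24 h against 12 h, where USH1C alone was called higher, DESeq2's Wald test gave 2, no filter 2, the 2 conditions alone 0, a log2 fold change of at least 1 gave 0, the GC content and length offset 3, and fits without 1 replicate between 0 and 3, the 3 being ECEL1, SNCG and USH1C without 12 h replicate 3. In that order they called 0.791%, 0.397%, 0.0408%, 0.0545% and 1.08% of all genes tested. Fits without 1 replicate called between 0.0742% and 0.609%, beside 0.18%. The cause of these shifts was not tested. The replicate block gave 0 for 24 h against 12 h and lost EYA4 and OLFML1 at 24 h, leaving 9 genes, and the block with the GC content and length offset gave 3 and 12. In these 2 contrasts the block called 0.12% and 10.7% of all genes tested, and the block with the offset 1.05% and 12.6%. Whether the replicate numbers pair the libraries is not settled. In MAGEA6 the direction at 24 h turned with the GC content and length offset, to -0.0203, and to -0.0202 with the replicate block as well. Counts of 0 in OE are limited by depth to 0.0208 CPM over 9 libraries.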
